A study of Gallus gallus with 21 samples.

Results

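Retinas of cocks that had worn a negative lens for 3 days were compared with those of cocks that had worn it for 1 day, on 9 of the 21 RNA sequencing libraries of a study of lens-induced myopia in White Leghorn chickens. The labels do not give the sex of the birds. The W chromosome is carried by hens alone, so libraries were selected on the level of HINTW, a multicopy gene of that chromosome: those under 1 CPM (reads scaled to library totals) were taken as libraries of cocks. The 9 libraries were 3 of the 7 titled 1 day (L4L, L12R and L14R) and 6 of the 7 titled 3 days (L25R, L26L, L27R, L36R, L38R and L39L). HINTW stood at 0.347, 0.102 and 0.237 CPM in the 3 libraries of day 1 and at 0.0243 to 0.162 CPM in the 6 of day 3. The 2 day 6 libraries under the limit, L48L and L55R, stood at 0.345 and 0.598 CPM, and the other 10 libraries of the series at 101 to 147 CPM, so the values nearest to the limit on either side were 0.598 and 101 CPM. These values chose the libraries and are given as a description. All birds of the series were wild type, had a lens of -10 dioptres fitted at 3 days of age and wore it for 1, 3 or 6 days, so the duration of lens wear and the age of the bird rose together. There were no birds without lenses. Whether each library came from a bird of its own is not stated, so the p-values compare groups of libraries, whose spread may be partly technical. The labels also do not give the hour of collection or the meaning of the codes.

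A negative lens moves the plane of focus behind the retina, and the young eye responds by growing longer. The retina holds a circadian clock in which the transcription factors encoded by ARNTL, NPAS2 and CLOCK switch on the PER and CRY genes, whose products then block them, so that levels of these genes swing over each day. In photoreceptors, light lowers cyclic GMP through a transducin and a phosphodiesterase, a cation channel closes, and calcium-sensing proteins restart the cyclase. Rods and cones use different genes for most of these steps. Cholesterol is made from acetyl units through mevalonate, squalene and lanosterol by enzymes whose genes are switched on together when sterols are scarce.

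Depth was estimated at 30.8 to 49.3 M reads per library, 9.94 to 15.3 M of them on the 18631 listed genes, and between 16683 and 17160 genes had a read. The correlation of log2 levels across genes between pairs of these libraries was 0.980 to 0.993 (Pearson, a description). It was highest between L12R and L14R of day 1. L4L had 0.986 with L12R and 0.984 with L14R, within its range of 0.980 to 0.987 with the libraries of day 3. The red blood cell list had 1 listed gene, which stood at 0 in all 9, and the 6 listed muscle markers together reached at most 0.598 CPM. Microglia and leukocyte markers summed to 6.40 to 9.76 CPM on day 1 and 6.22 to 8.53 CPM on day 3, with 10 listed. Of 13 listed markers of the pigment epithelium, the cell layer that adjoins the photoreceptors, the sum was 44.8 CPM in L4L, 33.8 in L12R and 33.5 in L14R, and 31.6 to 37.7 CPM on day 3. Levels are CPM, and changes are differences of the mean of log2(CPM + 1), day 3 minus day 1, with their SE. In bulk tissue fewer cells of a type and less RNA per cell cannot be told apart.

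Among 11039 genes tested, 55 rose and 27 fell (limma, Benjamini-Hochberg adjusted p under 0.05), which is 0.743% of those tested, 0.498% risen and 0.245% fallen. ENPEP, which rose, averaged under 1 CPM on day 1, and NR2E3, which fell, did so on day 3. Each entered the test through the day where it was high, so its call supports nothing. ENPEP is named for this alone. At an unadjusted p under 0.05 there were 1677 genes, 957 higher and 720 lower. In all 55 risen genes every library of day 3 lay above every library of day 1, and in all 27 fallen genes every one lay below. Over all genes tested this held for 5.47% upward and 3.33% downward. The genes were called on these same libraries, so their separation is a description. Rises of called genes lay between 0.35 and 2.18 on the log2 scale, and falls between -0.40 and -1.32. The median change of all genes tested was 0.01. The count of calls depended on single libraries: without L14R 1 gene passed, and without L12R and L4L 43 and 88 did. Without L25R, L26L, L27R, L36R, L38R and L39L of day 3 the counts were 23, 51, 44, 39, 72 and 54. The 88 genes without L4L held 39 of the 82, and with any other single library left out 1 to 57 of the 82 passed again. Without L14R 81 of the 82 were still tested, and all 81 kept their direction and an unadjusted p under 0.05. Their changes were 0.81 to 1.20 times those with all 9 libraries, with a median of 0.96. They were called with the same libraries, so this is a description. Within the libraries of higher code numbers alone (L12R, L14R, L36R, L38R and L39L) 0 genes passed, with 1738 at an unadjusted p under 0.05, and within those of lower numbers (L4L, L25R, L26L and L27R) also 0, with 1941.

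**Figure D1:**
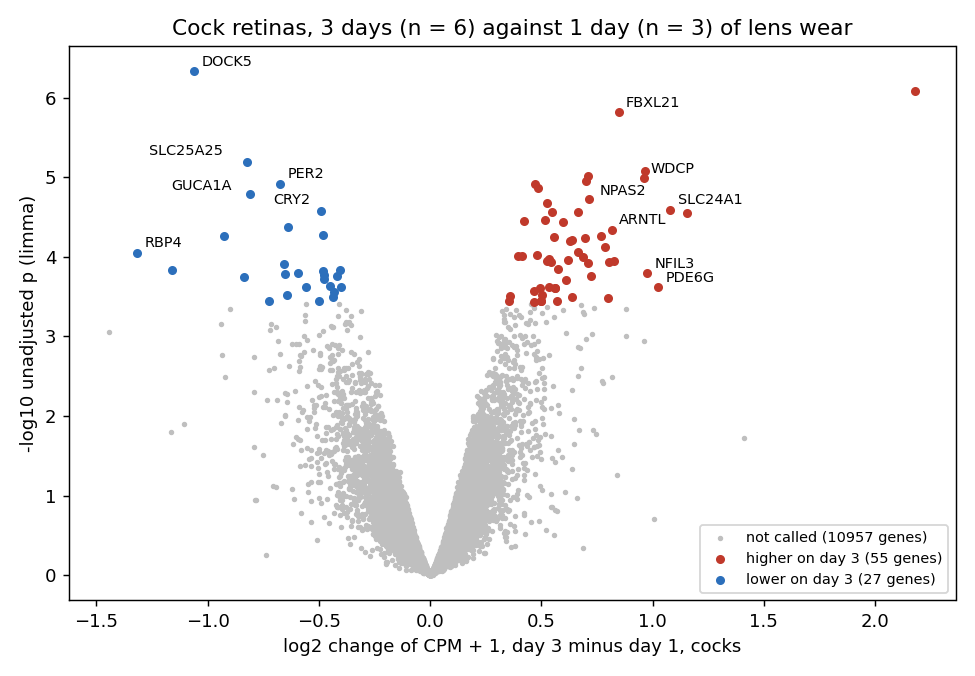
Each point is 1 of 11039 genes in cock retinas; the horizontal axis is the log2 change of CPM + 1, day 3 (n = 6) minus day 1 (n = 3), and the vertical axis is -log10 of the unadjusted limma p. Red points are the 55 genes that rose, blue points the 27 that fell at an adjusted p under 0.05, and grey points the rest.

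**Figure D2:**
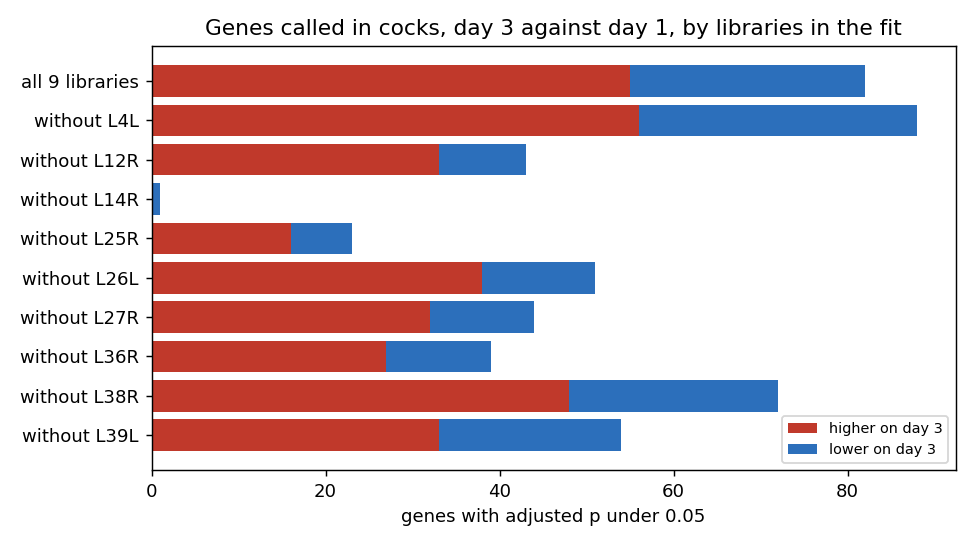
Bars give the number of genes with an adjusted p under 0.05 with all 9 libraries and with each left out in turn, red for genes higher and blue for genes lower on day 3. The bar without L14R holds 1 gene, the bar with all libraries 82, and the bar without L4L 88.

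Clock genes changed in both directions. Of 11 tested genes listed with the activator phase of the clock, ARNTL, ARNTL2, NPAS2 and NFIL3 rose and CRY2 fell, with a median of 0.01 over the list. CRY2 was placed in this list although it encodes a repressor. Of 11 listed with the repressor phase, PER2 fell and 0 rose, with a median of -0.31 beside 0.01 for all genes tested. Together 6 of these 22 genes passed, beside 0.743% of all genes.

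ARNTL (chromosome 5, 7819805 to 7864577 in the GRCg6a build), also called BMAL1, encodes a core activator of the clock. It stood at 18.8, 28.1 and 20.2 CPM in L4L, L12R and L14R and at 33.4 to 45.0 CPM on day 3, with a median of 39.9, a change of 0.82 ± 0.13 (SE; limma adjusted p = 0.0210). All 6 libraries of day 3 lay above the highest of day 1, L12R. Its paralog ARNTL2 stood at 43.6, 37.2 and 38.9 CPM on day 1 and at 53.97 to 70.2 CPM on day 3 (median 62.6; 0.63 ± 0.10, adjusted p = 0.0227). NPAS2, which encodes a partner of the ARNTL protein, stood at 9.52, 9.91 and 7.92 CPM and then at 14.1 to 17.8 CPM (median 15.2; 0.71 ± 0.10, adjusted p = 0.0158). CLOCK, the gene of the other partner, had a change of 0.03 (adjusted p = 0.901).

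NFIL3 (chromosome Z, 44356108 to 44370014), a transcriptional repressor of the clock's output, stood at 19.8, 29.2 and 28.5 CPM on day 1. On day 3 it lay between 40.4 and 70.0 CPM with a median of 49.7, a change of 0.98 ± 0.17 (adjusted p = 0.0341). L4L was the lowest library of day 1, and without it the change was 0.80 (adjusted p = 0.0771). FBXL21 (chromosome 13, 15919405 to 15932600), whose product binds cryptochromes in mice, was in neither list. It stood at 19.1, 24.6 and 20.98 CPM and then at 36.1 to 42.3 CPM, median 39.5 (0.85 ± 0.09, adjusted p = 0.00560), with the groups far apart.

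PER2 (chromosome 9, 5654602 to 5695660), a repressor gene of the clock, stood at 207, 201 and 198 CPM on day 1 and at 109 to 139 CPM on day 3. The median of day 3 was 131 CPM and the change -0.67 ± 0.09 (adjusted p = 0.0135), and the 3 libraries of day 1 lay close together. CRY2, another repressor gene, stood at 53.6, 46.7 and 48.9 CPM and then at 33.3 to 37.5 CPM, median 34.8 (-0.49 ± 0.07, adjusted p = 0.0164). PER3 did not pass: it stood at 92.3 CPM in L4L but at 50.4 and 46.2 CPM in L12R and L14R, beside 35.7 to 50.7 CPM on day 3 (median 39.9; -0.55 ± 0.19, adjusted p = 0.219). Its groups overlapped, and without L4L the change was -0.25. NR1D2 and BHLHE41, repressors of the clock's feedback loops, had log2 changes of -0.31 and -0.52 and did not pass (adjusted p = 0.126 and 0.172).

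Of the 7 clock genes that passed, FBXL21 included, 0 passed without L14R, where their adjusted p lay between 0.0532 and 0.123. Without L4L, L27R or L39L 6 passed, without L12R or L36R 5, without L25R 4, and without L26L or L38R all 7. NFIL3 was the gene lost in each of these cases apart from the ones where 7 passed, with ARNTL2 beside it without L12R and L36R, and with ARNTL2 and ARNTL without L25R.

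**Figure D3:**
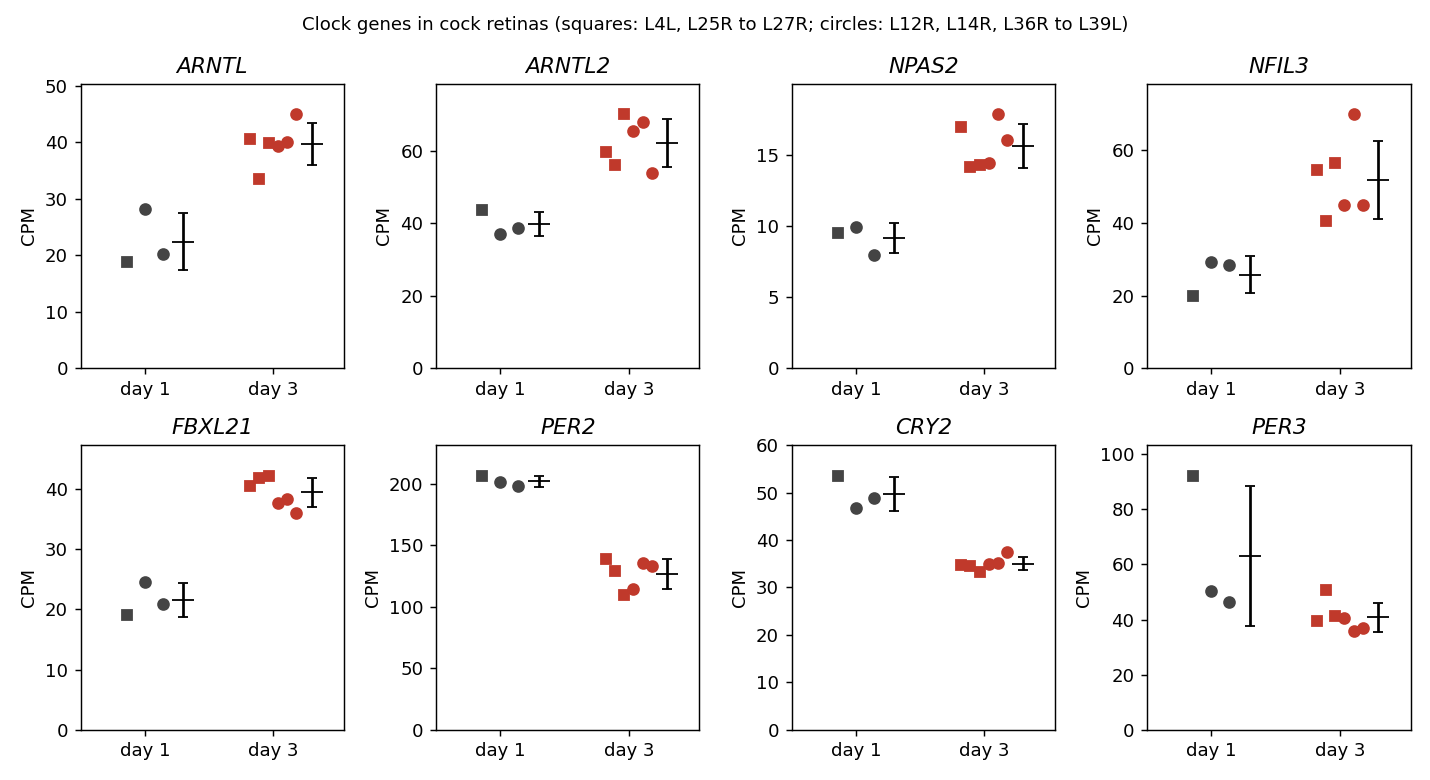
CPM of 8 clock genes in the 3 cock libraries of day 1 (dark) and the 6 of day 3 (red); squares are L4L and L25R to L27R, circles L12R, L14R and L36R to L39L, and the dash with bars is the mean ± SD. ARNTL, ARNTL2, NPAS2, NFIL3 and FBXL21 lie higher on day 3 and PER2 and CRY2 lower, without overlap, while PER3 overlaps and has a high value of 92.3 CPM in L4L.

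Of 24 tested genes of cholesterol synthesis and transport, 7 rose and 0 fell, 22 had a positive change, and the median was 0.39, beside 0.743% called and a median of 0.01 for all genes tested. At an unadjusted p under 0.05 15 were higher and 1 lower, beside 957 and 720 of 11039. The CPM of the 28 listed members summed to 599 in L4L, 637 in L12R and 597 in L14R, and to 791 to 999 on day 3.

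HMGCS1 (chromosome Z, 13648499 to 13665261) encodes the enzyme that makes the precursor of mevalonate. It stood at 61.8, 64.4 and 66.6 CPM on day 1 and at 93.0 to 142 CPM on day 3, median 107 (0.77 ± 0.12, adjusted p = 0.0218). IDI1, an isomerase of the isoprenoid units, stood at 20.7, 24.4 and 22.1 CPM and then at 31.7 to 40.0 CPM, median 33.5 (0.60 ± 0.09, adjusted p = 0.0183).

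FDFT1, which encodes squalene synthase, stood at 19.96, 20.5 and 18.7 CPM on day 1 and at 27.9 to 38.5 CPM on day 3, median 31.2 (0.67 ± 0.10, adjusted p = 0.0164). LSS, the gene of lanosterol synthase, stood at 4.08, 4.06 and 3.25 CPM and then at 5.64 to 7.81 CPM, median 6.62 (0.67 ± 0.11, adjusted p = 0.0289). MSMO1, a demethylating oxidase of sterols, stood at 22.3, 29.8 and 25.8 CPM and then at 33.4 to 43.9 CPM, median 38.4 (0.57 ± 0.11, adjusted p = 0.0492). The genes that rose came from early, middle and late steps. DHCR7 and SQLE, which act after squalene is made, had changes of 0.48 and 0.42 and did not pass (adjusted p = 0.126 for each).

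The other 2 genes that rose act in transport. STARD4, whose product carries cholesterol within the cell, stood at 52.3, 60.3 and 51.9 CPM and then at 73.6 to 90.6 CPM, median 81.7 (0.56 ± 0.09, adjusted p = 0.0218). ABCG1, an exporter of sterols, stood at 206, 201 and 204 CPM on day 1 and at 262 to 315 CPM on day 3, median 295 (0.52 ± 0.08, adjusted p = 0.0183). The sensors of the pathway did not pass: INSIG1 had a change of 0.58 (adjusted p = 0.270), SREBF2 0.19 (0.649) and SCAP -0.34 (0.320). Without L14R 0 of the 7 passed, with adjusted p of 0.101 to 0.196. Without L12R or L25R 3 passed, without L4L 4, without L27R 5, and without L26L, L36R, L38R or L39L 6. With the set of code numbers as a covariate MSMO1 did not pass (adjusted p = 0.0733). With the 14 libraries of days 1 and 3 and a term for sex LSS and MSMO1 did not (adjusted p = 0.114 and 0.0624).

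**Figure D4:**
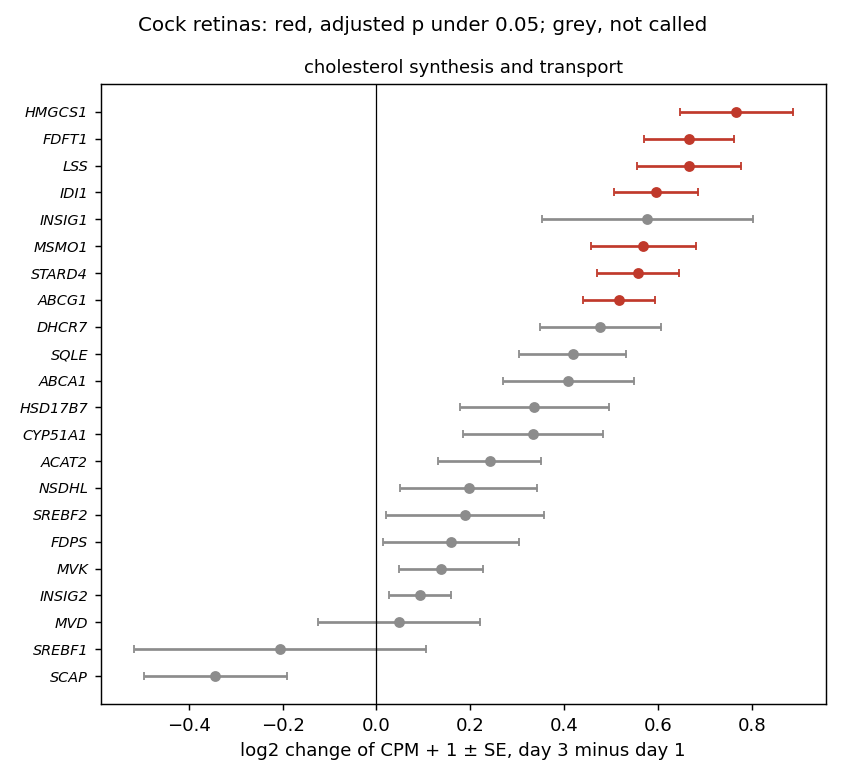
Log2 changes of CPM + 1 ± SE, day 3 minus day 1 in cocks, of 22 of the tested genes of cholesterol synthesis and transport. The 7 red genes passed the test, and 20 of the 22 points lie right of 0.

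Photoreceptor genes changed in both directions. Of 11 tested rod genes, SLC24A1, PDE6G and CNGA1 rose and NR2E3, at a low level, fell, with a median of 0.26. Of 13 tested cone genes, GRK7 fell and 0 rose, with a median of -0.15, and of 9 genes of calcium feedback GUCA1A fell and 0 rose, with a median of -0.21. Of all genes tested 0.743% were called, with a median of 0.01. The summed CPM of rod genes was 542 to 577 on day 1 and 477 to 672 on day 3, and that of cone genes 2116 to 2596 and 1906 to 2569, so both sums overlapped between days.

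SLC24A1 (chromosome 10, 18508304 to 18523280) encodes the exchanger that removes calcium from rod outer segments. It stood at 8.54, 13.5 and 11.3 CPM on day 1 and at 17.8 to 28.4 CPM on day 3, median 25.3, a rise of 2.11-fold on the scale of CPM + 1 (1.08 ± 0.16, adjusted p = 0.0164). PDE6G (chromosome 18, 9137019 to 9143257), the inhibitory subunit of the rod phosphodiesterase, stood at 7.04, 8.93 and 6.65 CPM and then at 9.92 to 21.5 CPM, median 16.9 (1.02 ± 0.19, adjusted p = 0.0405). CNGA1, a subunit of the rod cation channel, stood at 8.24, 12.4 and 11.97 CPM and then at 15.4 to 22.0 CPM, median 19.9 (0.80 ± 0.14, adjusted p = 0.0292). In each of the 3 genes the lowest library of day 3 lay above the highest of day 1.

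GNAT1, the rod transducin gene, and SAG, an arrestin gene, did not pass, with changes of 0.58 and -0.07 (adjusted p = 0.164 and 0.862). NR2E3, which encodes a nuclear receptor of rod fate in mice, stood at 1.92, 1.42 and 1.60 CPM on day 1 and at 0.411 to 0.948 CPM on day 3, median 0.665 (-0.66 ± 0.11, adjusted p = 0.0294). All 6 libraries of day 3 were under 1 CPM, so the gene entered the test through day 1, where it was high, and its call supports nothing.

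GRK7, the cone opsin kinase gene, stood at 203, 179.7 and 182 CPM on day 1 and at 115 to 144 CPM on day 3, median 136 (-0.48 ± 0.09, adjusted p = 0.0336). GUCA1A (chromosome 26, 3184817 to 3189220), whose product activates guanylate cyclase when calcium falls, stood at 82.3, 60.1 and 75.4 CPM and then at 35.3 to 44.2 CPM, median 42.1 (-0.81 ± 0.11, adjusted p = 0.0149). CNGA3, which encodes part of the cation channel of cones, did not pass although its groups did not overlap. It stood at 77.1 CPM in L4L, 49.1 in L12R and 50.4 in L14R, and at 29.8 to 43.8 CPM on day 3, median 33.4 (-0.72 ± 0.16, adjusted p = 0.0668). It passed with all 21 libraries in the fit (adjusted p = 0.0200) and with 14 libraries and a term for sex (-0.86, 0.0105). In those fits 3 and 4 cone genes fell and 1 rose. Over all genes these fits called more as well, 244 of 11072 and 239 of 11057, beside 82 of 11039 with the 9 libraries.

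The cone opsins did not pass either. OPN1LW, the red cone pigment gene, stood at 99.5, 109 and 68.4 CPM on day 1 and spread from 67.8 to 251 CPM on day 3, median 129 (0.45 ± 0.35, adjusted p = 0.583). OPN1MSW, the green cone pigment gene, stood at 45.9, 41.7 and 37.4 CPM and then at 36.9 to 58.5 CPM, median 45.4 (0.15 ± 0.16, adjusted p = 0.706). Day 3 libraries of both genes lay on either side of those of day 1. GNGT2, a cone transducin subunit, had a change of 0.47 (adjusted p = 0.0798) and ARR3, the cone arrestin gene, -0.59 (0.199).

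Other called genes are active in photoreceptors of mammals. PPEF2, a photoreceptor phosphatase gene, stood at 37.6, 49.0 and 40.0 CPM and then at 57.4 to 77.6 CPM, median 69.5 (0.70 ± 0.11, adjusted p = 0.0218). CACNA2D4, a subunit of the calcium channel of photoreceptor synapses, stood at 60.9, 75.5 and 60.9 CPM and then at 84.6 to 103 CPM, median 94.2 (0.50 ± 0.10, adjusted p = 0.0469). NXNL1, the gene of a cone survival factor made by rods in mice, fell from 28.2, 26.8 and 25.96 CPM to between 17.3 and 22.1 CPM, median 18.8 (-0.48 ± 0.09, adjusted p = 0.0341). CACNA2D4 and NXNL1 were picked after their values were seen.

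Leaving out a library changed these calls. Of the 9 genes that passed (SLC24A1, PDE6G, CNGA1, NR2E3, GRK7, GUCA1A, PPEF2, CACNA2D4 and NXNL1), 0 passed without L14R, with adjusted p of 0.0953 to 0.216. Without L4L or L25R 2 passed, SLC24A1 and GUCA1A. Without L36R 3 passed, without L27R 4, without L12R 5, without L26L or L39L 6, and without L38R 7. NR2E3, whose call supports nothing, averaged under 1 CPM without any of the day 1 libraries and was then not tested. PDE6G passed with all libraries and without L26L, and was lost without any of the others.

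**Figure D5:**
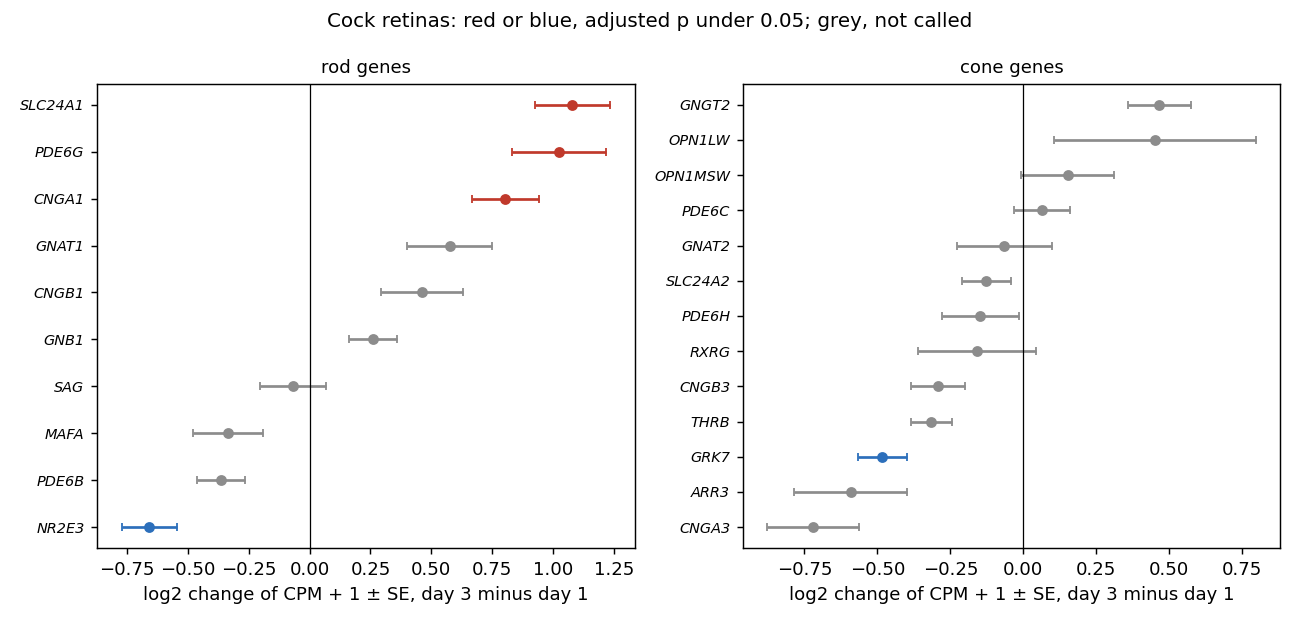
Log2 changes of CPM + 1 ± SE, day 3 minus day 1 in cocks, of 10 rod genes (left) and 13 cone genes (right). SLC24A1, PDE6G and CNGA1 rose (red), NR2E3 and GRK7 fell (blue), and the grey genes did not pass. NR2E3 entered the test through day 1, where it was high, so its call supports nothing.

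Of 14 tested genes of retinoid handling, RBP4 fell and ABCA4 rose, with a median of -0.09, beside 0.743% called among all genes. RBP4 (chromosome Z, 53612243 to 53617574) encodes a carrier of retinol, the precursor of the chromophore. It stood at 268 CPM in L4L, 144 in L12R and 168 in L14R, and at 51.05 to 95.2 CPM on day 3, median 77.4. That was a 2.49-fold fall on the scale of CPM + 1 (-1.32 ± 0.22, adjusted p = 0.0289), the largest among genes that passed. All day 3 libraries lay below all of day 1, and L4L was the highest. The call of RBP4 ended without L4L (-1.06, adjusted p = 0.0537), L14R (-1.39, 0.109), L25R (adjusted p = 0.0670) and L39L (0.0527).

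L4L also had the highest sum of pigment epithelium markers. RPE65, the isomerase gene that defines that layer, stood at 7.04 CPM there, at 2.96 and 1.34 CPM in L12R and L14R, and at 0.899 to 4.54 CPM on day 3. The part of these markers in the change of RBP4 was not tested. ABCA4, which encodes a transporter of retinal in photoreceptor discs, stood at 177, 187 and 150.0 CPM on day 1 and at 229 to 246 CPM on day 3, median 242 (0.48 ± 0.08, adjusted p = 0.0289). Without L14R, L25R, L26L or L36R it did not pass, with an adjusted p of up to 0.124.

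Of 10 tested genes of Müller glia, the support cells that span the retina, CA2 fell and 0 rose, beside 0.743% called among all genes. The median was -0.19, with 6 negative and 4 positive changes. The CPM of the 14 listed genes summed to 1716, 1745 and 1730 in L4L, L12R and L14R and to 1359 to 1470 on day 3, with no overlap. CA2 and GLUL, the glutamine synthetase gene, made up most of that sum. CA2 (chromosome 2, 122766270 to 122782526), a carbonic anhydrase gene, stood at 357, 476 and 496 CPM on day 1 and at 271 to 316 CPM on day 3, median 289 (-0.59 ± 0.11, adjusted p = 0.0341). L4L was nearest to day 3. With 14 libraries and a term for sex CA2 did not pass (-0.43, adjusted p = 0.0772), and without that term its change was -0.23 (0.477). GLUL had a change of -0.38 and did not pass (adjusted p = 0.0611). AQP4, the water channel gene of these glia, had a change of 0.20 (adjusted p = 0.394) and SLC1A3, their glutamate transporter gene, 0.00 (0.988).

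SGK1, a kinase gene induced by glucocorticoids, was the 1 of 11 hormone response genes to pass, beside 0.743% of all genes, and 5 of the 11 had a positive change. It stood at 44.9, 51.7 and 59.9 CPM on day 1 and at 29.7 to 35.4 CPM on day 3, median 33.3 (-0.64 ± 0.10, adjusted p = 0.0203). DIO2, the gene of the deiodinase that activates thyroid hormone, and THRB, a thyroid hormone receptor gene, had changes of -0.56 and -0.32 (adjusted p = 0.0728 for each). FKBP5 and TSC22D3, which glucocorticoids induce, were at 0.28 (adjusted p = 0.258) and 0.34 (0.322) on the log2 scale, day 3 less day 1.

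Of 12 tested immediate early genes, NPTX2 fell and 0 rose, 10 had a negative change, and the median was -0.31, beside 0.743% called among all genes. NPTX2, a synaptic pentraxin gene, stood at 51.01, 47.9 and 43.3 CPM and then at 31.4 to 37.1 CPM, median 34.5 (-0.45 ± 0.08, adjusted p = 0.0405). EGR1, whose protein ZENK is a marker of amacrine cells that respond to the sign of defocus in chicks, had a change of -1.44 ± 0.32 that did not pass (adjusted p = 0.0691). It passed with all 21 libraries in the fit (adjusted p = 0.0157) and with 14 libraries and a term for sex (-1.24, 0.0188). Those fits called more of all genes as well, 244 and 239 beside 82. EGR1 did not pass without L4L (-1.29, adjusted p = 0.145), without L14R (-1.47, 0.225) or in the higher code numbers alone (-1.11, 0.307). It stood at 15.1, 9.87 and 11.5 CPM on day 1 and at 1.54 to 7.47 CPM on day 3, median 3.35, with no overlap. NDRG1, a gene induced by low oxygen, was the 1 of 12 hypoxia genes to pass, beside 0.743% of all genes, and 7 of the 12 had a negative change, with a median of -0.04. It stood at 85.2, 105 and 75.0 CPM and then at 129 to 169 CPM, median 139 (0.69 ± 0.12, adjusted p = 0.0291).

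Of these 4 genes (CA2, SGK1, NPTX2 and NDRG1), 0 passed without L14R, with adjusted p of 0.101 to 0.175. Without L12R, L25R, L27R or L36R 1 passed, without L4L, L26L or L39L 2, and without L38R 3. With the set of code numbers as a covariate NPTX2 did not pass (adjusted p = 0.0607), nor did it with all 21 libraries in the fit (0.0732).

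Chaperone genes varied among the 3 libraries of day 1. Of 21 tested cytosolic chaperones 0 passed, 17 had a negative change, 12 were lower at an unadjusted p under 0.05 and the median was -0.30, beside 720 of 11039 lower among all genes. Their CPM summed to 1136 in L4L, 1576 in L12R and 1759 in L14R, and to 893 to 1159 on day 3, so L4L lay within the range of day 3. HSPA8, the constitutive chaperone of the cytosol, stood at 334, 484 and 563 CPM and then at 165 to 288 CPM, median 246 (-0.94 ± 0.20, adjusted p = 0.0611). HSP90AA1 stood at 287, 505 and 577 CPM and then at 229 to 358 CPM, median 262 (-0.69 ± 0.20, adjusted p = 0.156). Its change was -0.94 in the higher code numbers alone and -0.13 in the lower. Hen libraries of day 1 spread from 151 to 521 CPM for HSPA8, median 259, and from 214 to 600 CPM for HSP90AA1, median 283. Without L4L 5 of the 21 passed and all 5 fell, among them HSPA8 (-1.15, adjusted p = 0.0371). In that fit 56 rose and 32 fell of all 11003 genes tested. Without L14R 0 of the listed cytosolic chaperones passed. HSPA8 also passed after scaling by the listed total (-0.95, 0.0468) or by median of ratios (-0.96, 0.0439). With the set of code numbers as a covariate it passed too (adjusted p = 0.0442), as with a pseudocount of 5 or genes of at least 5 CPM. With a pseudocount of 0.1, no filter, or trend and robust variances it did not. It did not pass without L14R (-0.78, adjusted p = 0.245) or with all 21 libraries in the fit (0.0688). Nor did it pass with 14 libraries and a term for sex (-0.66, 0.229) or without that term (-0.48, 0.361).

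Of 68 tested cytosolic ribosomal protein genes 0 passed, while 65 had a positive change and 26 were higher at an unadjusted p under 0.05, beside 957 of 11039 among all genes, with a median of 0.20. Their sum was 2569, 2999 and 2723 CPM in L4L, L12R and L14R and 3082 to 3291 CPM on day 3. Of 33 lists, 30 had a tested gene and 11 a gene that passed. Those with 0 genes passed included serotonin and melatonin genes, where TPH1, the first enzyme of the pathway, had a change of 0.70 (adjusted p = 0.0768, and 0.0115 with all 21 libraries), dopamine genes and the eye growth candidates. Bipolar, amacrine, horizontal and ganglion cell genes likewise had 0, of 11, 14, 7 and 12 tested, with medians between -0.19 and -0.04. The serotonin and melatonin, dopamine and eye growth lists had 11, 10 and 14 tested genes. Of all genes tested 0.743% passed, so 0 calls in lists this short lies near that share and says nothing about them.

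Large changes were also seen outside the lists. LOC101749116 (chromosome 2, 105154780 to 105180412), a long noncoding RNA in the RefSeq gene table, had the largest rise of the genes that passed. It stood at 1.60, 2.13 and 1.19 CPM on day 1 and at 6.42 to 14.8 CPM on day 3, median 11.1, a 4.53-fold rise on the scale of CPM + 1 (2.18 ± 0.22, adjusted p = 0.00449). DOCK5 (chromosome 22, 976570 to 1053185), which encodes an activator of the GTPase Rac, fell from 7.42, 8.95 and 7.24 CPM to between 2.81 and 3.89 CPM, median 3.30 (-1.06 ± 0.10, adjusted p = 0.00449). It was the 1 gene that passed without L14R (-1.11, adjusted p = 0.0309). Both genes were named after their values were seen.

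WDCP stood at 9.31, 11.05 and 9.01 CPM on day 1 and at 15.7 to 25.4 CPM on day 3, median 19.8 (0.96 ± 0.13, adjusted p = 0.0135). SMIM28 and COLEC11, a lectin gene of the complement system, rose by 0.70 and 0.71 (adjusted p = 0.0135 and 0.0292). PTN, the gene of the secreted growth factor pleiotrophin, had a high level and was picked after its values were seen. It stood at 498, 547 and 488 CPM and then at 662 to 763 CPM, median 747 (0.53 ± 0.07, adjusted p = 0.0164).

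SLC25A25, a calcium-regulated nucleotide carrier of mitochondria, fell from 38.8, 33.2 and 30.7 CPM to between 16.6 and 21.4 CPM, median 18.6 (-0.82 ± 0.10, adjusted p = 0.0135). CEP164, a component of the appendages that anchor the cilium, stood at 215, 199 and 189 CPM and then at 96.1 to 150.4 CPM, median 134 (-0.64 ± 0.12, adjusted p = 0.0469). MED6, a subunit of the Mediator complex, and CXCL14, a chemokine gene, fell by 0.56 and 0.50 on the log2 scale (adjusted p = 0.0405 and 0.0492). Without L14R the adjusted p of LOC101749116, WDCP, SMIM28, COLEC11, PTN, SLC25A25, CEP164, MED6 and CXCL14 reached 0.217. CXCL14 was lost with any of the 9 libraries left out, MED6 with any but L38R, and CEP164 with any but L36R. COLEC11 was lost without L12R, L14R, L25R, L36R or L39L, and with 14 libraries and a term for sex (0.47, adjusted p = 0.162). CXCL14 was also lost with the set of code numbers as a covariate (adjusted p = 0.0718) and with all 21 libraries in the fit (0.0784).

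Since the series is uneven in hens, the Z chromosome was looked at apart. A hen has 1 copy of Z and a cock has 2, and day 1 had 4 hen libraries of 7 while day 3 had 1 of 7. Within the cocks 5 of 564 tested Z genes rose and 3 fell, 1.42%, beside 50 and 24 of 10475 on other chromosomes, 0.706%. The median change was 0.02 on Z and 0.01 elsewhere. With the 14 libraries of both days and no term for sex, the median of 560 Z genes was 0.20, and 9 rose and 2 fell, 1.96%. In that fit 115 rose and 107 fell of all 11057 genes tested, with a median of -0.0008. The median of that fit thus lay higher on Z than over all genes, and most of the calls on Z were rises. Within the cocks the medians were alike, and the share of calls was 1.42% on Z beside 0.706% elsewhere. Differences in the share of calls between Z and other genes were not tested in either fit.

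The Z genes that rose were NFIL3, STARD4, HMGCS1, ITGA1 (an integrin gene) and IQGAP2 (a scaffold gene of the cytoskeleton), and those that fell were RBP4, ARRDC3 and GAK. ARRDC3 (chromosome Z, 59536896 to 59550460), an arrestin-like gene, stood at 56.3, 56.4 and 50.2 CPM on day 1 and at 35.96 to 42.3 CPM on day 3, median 37.9 (-0.48 ± 0.08, adjusted p = 0.0218). The hens stood at 24.9 to 27.7 CPM on day 1 and at 26.97 CPM on day 3. With the 14 libraries and no term for sex the change of ARRDC3 was 0.02 (adjusted p = 0.976). With a term for sex it was -0.34 (adjusted p = 0.0483). GAK, a kinase gene of clathrin uncoating, stood at 197, 196 and 192 CPM and then at 133 to 169 CPM, median 141 (-0.43 ± 0.08, adjusted p = 0.0478). Without L14R or L25R 0 of the 8 Z genes passed, without L4L 2, without L12R 3, without L27R, L36R or L39L 4, and without L26L or L38R 6. With the set of code numbers as a covariate IQGAP2 did not pass (adjusted p = 0.0759).

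The hens of the same days were 4 libraries of day 1 and L29L of day 3. L29L lay above all 4 hens of day 1 in 37 of the 55 genes that rose in cocks, 67.3%, beside 17.8% of all genes tested. It lay below all 4 in 20 of the 27 that fell, 74.1%, beside 27%. ARNTL stood at 25.7 to 30.1 CPM in hens of day 1 and at 47.4 CPM in L29L, RBP4 at 176 to 231 and 55.8 CPM, and LOC101749116 at 1.31 to 4.16 and 14.4 CPM. HMGCS1 stood at 63.5 to 95.8 CPM in hens of day 1 and at 87.3 CPM in L29L, which is within their range. CA2 stood at 239 to 330.2 CPM in hens of day 1, below the cocks of that day, and at 269.8 CPM in L29L.

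A test of the difference between the changes of cocks and hens, over all 21 libraries, called 1 of 11072 genes, 0.00903%, with 901 at an unadjusted p under 0.05. The hens' side of it rested on L29L alone on day 3, which is assumed to vary like the other groups. The count was 17 without the hen library L13L of day 1, and 0 without any of L1R, L2L, L12R, L14R, L25R, L26L or L39L. For ARRDC3 and CA2 the difference was -0.51 ± 0.13 and -0.57 ± 0.23 and did not pass (adjusted p = 0.348 and 0.557).

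The 2 cock libraries of day 6, L48L and L55R, were set beside the range of the 3 of day 1. Of the 55 genes that rose by day 3, both libraries lay above all of day 1 in 51, 92.7%, beside 29.2% of all genes tested. Of the 27 that fell, both lay below all of day 1 in 12, 44.4%, beside 7.77% of all genes. The genes were called against the same day 1 libraries, so these shares are a description. Listed genes held 32.9 and 33.3% of the CPM scale in L48L and L55R, beside 30.7 to 31.2% in the 3 of day 1. Levels of listed genes were thus higher as a whole on day 6, and the part of this in the shares was not tested. SLC24A1 stood at 24.97 and 27.5 CPM on day 6 and ARNTL at 45.5 and 46.1 CPM, within or just above their day 3 ranges. HMGCS1 stood at 78.8 and 74.8 CPM, between its levels of days 1 and 3. GUCA1A at 70.7 and 76.2 CPM and SLC25A25 at 37.0 and 35.6 CPM lay within their day 1 ranges. RBP4 stayed lower, at 102 and 95.7 CPM.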

How the data were processed

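Retinal total RNA depleted of ribosomal RNA was sequenced, per the labels' protocols. The deposited table gives CPM, made by the authors, and every value carries an added 0.0001, which was subtracted. STAR and Partek were used with build GRCg6a, per the submitters' processing notes; their versions were not given in the sources used. Listed genes held 30.3 to 32.2% of the CPM scale in the 9 libraries, and read totals were estimated from each library's smallest CPM step, 0.0203 to 0.0324. Coordinates are copied from the table, and their first base may count as 0 or 1. Chromosome names came from a RefSeq gene table.

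CPM are not counts, so limma 3.58.1 in R 4.3.3 (lmFit, eBayes with trend and robust off) was run on log2(CPM + 1) over the 9 libraries, with 7 residual degrees of freedom. The test took in genes that averaged 1 CPM or more, and p-values were adjusted by Benjamini-Hochberg at 0.05. The difference between sexes was tested over all 21 libraries with 6 group means and 15 residual degrees of freedom. The procedure was tested on simulated data, in which each gene varied by itself and the lowest levels were left unchanged. Of 50 genes each changed 1.25, 1.5, 2 and 3-fold, 9, 39, 48 and 50 were recovered in cocks. For the difference between sexes 1, 22, 39 and 49 were. Python 3.11.15, numpy 2.4.6, pandas 2.3.3 and matplotlib 3.10.9 were used.

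The libraries and the 33 gene lists were chosen with earlier results of these data known. Named genes were the 12 risen and 12 fallen genes of largest change that passed, had a symbol and lay at or above the median level, 3 genes of lowest p per list, 20 fixed by name and 4 in each direction from the test between sexes. Other genes are named as called members of lists or, where said, after their values were seen. Alternatives were other pseudocounts, filters, scalings, variance settings and sets of libraries. No sequences were used. Some genes that the rule names are not reported here.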

Additional observations from a re-analysis of the deposited data

Results flagged for a closer look

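In the 6 cock libraries of day 3, 6 of 93 genes had a library far from the others. The 93 were the called genes and those fixed by name, less some not reported here. Distance was measured as the gap to the nearest library divided by the range and set against 0.625. Chance gives about 1 in 20. The gap was 0.797 of the range for MED6, 0.756 for PTN, 0.638 for GRK7, 0.634 for MSI1, 0.633 for HSPA5 and 0.630 for PER3. MSI1, which encodes an RNA-binding protein of neural progenitors, is named for this gap alone.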

How the results depend on the processing

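The 82 calls became 42 with a pseudocount of 0.1 and 186 with 5, 155 with genes of a mean of at least 5 CPM, and 198 with trend and robust variances. With all 21 libraries in the fit there were 244, with the 14 libraries of days 1 and 3 and a term for sex 239, and without that term 222. Higher or lower code numbers alone gave 0 in either case, and leaving out a library gave 1 (L14R) to 88 (L4L), with 43, 23, 51, 44, 39, 72 and 54 without L12R, L25R, L26L, L27R, L36R, L38R and L39L. Higher genes were 67.1% of the calls, but 47.7% (114 and 125) with 14 libraries and the term for sex, and 51.8% without it. The other 4 alternatives (no filter, scaling by the listed total, median-of-ratios scaling, a code set covariate) gave 67, 106, 111 and 75. With that covariate 67 of the 82 passed.

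The 1 gene called for the difference between cocks and hens became 0 with a pseudocount of 0.1 or no filter. Leaving out a library gave 0 to 17, with 2 without L4L or L38R, and leaving out L29L was not possible, since no hen of day 3 is left.

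Direction reversed for ARRDC3 with 14 libraries and no term for sex (0.021), and for OPN1LW (-0.14) and OPN1MSW (-0.12) in the lower code numbers alone. The cause was not tested. Fits of 14 libraries with no term for sex and of lower code numbers alone were chosen after seeing the data. No paired analysis was run, because the labels do not link any library of day 1 to a library of day 3. The 3 libraries of day 1 limit the precision of each change.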
